A study of Mus musculus with 8 samples.

Results

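Hematopoietic stem cells (HSCs) lacking the Mediator subunit Med23 by label were examined cell by cell. They comprised every column of the deposited table that carries the KO name, 282 of the 586 single cells of the series, and the genotype was the sole criterion for choosing them. Per the labels they were C57BL/6 bone marrow HSCs of genotype Med23-/-, isolated from the LSK gate (no lineage antigens, Sca1 and c-Kit present) by the CD150+CD34-CD48- phenotype. In the study's methods, KO denotes Mx1-cre+ Med23 L/L mice injected with poly(I:C). Mx1-cre is switched on by interferon and deletes the floxed allele in all interferon-responsive cells, not in HSCs alone. Age and sex of the mice, the time from injection to sorting and the number of mice are not given in the sources used here. The labels name 4 KO libraries, but the columns do not say which library a cell came from, so all cells formed 1 pool, no replicate check exists, and differences between animals or libraries cannot be told apart from differences between cells. No test or p-value is given.

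HSCs sit at the top of the blood hierarchy and renew themselves while giving rise to all lineages. Most of them are quiescent, and single HSCs often hold low levels of transcripts that belong to several later lineages, which is called lineage priming. Mediator links transcription factors at enhancers to RNA polymerase II, and Med23 sits in its tail module.

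Each cell was picked by hand and its RNA copied from the poly(A) tail with a primer bearing a barcode for the cell and a random tag for the molecule, the unique molecular identifier (UMI); UMIs therefore count molecules, not reads. The 282 cells held 16929884 UMIs over 10720 genes, with 10019 to 467384 UMIs per cell. The study states a minimum of 2000 genes and 20000 transcripts per cell. Counted over the genes of the table, that minimum left 234 of the 282 cells, with 20027 to 467384 UMIs, a median of 50281 and a median of 3594.5 genes. Because depth varied this widely, each of the 234 cells was thinned at random to 20000 UMIs, and every level below is in thinned UMIs per cell unless stated otherwise.

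Med23, the targeted gene, had 117 UMIs in the pool before thinning, or 7.23 UMIs per 1000000 of the pool (CPM; exact 95% Poisson interval 5.98 to 8.67). These lay in 27 of the 234 cells (11.5%, exact 95% binomial interval 7.74 to 16.3), and 3 of the cells held 28, 22 and 16, or 56.4% of all. A further 13 cells held 1 UMI. Without the 3 cells the level was 3.19 CPM. Which exons were deleted is not given in the sources used here, and UMIs primed from the poly(A) tail can lie outside the deleted part, so this count does not check the genotype label. Here and below, intervals cover counting error only.

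The label HSC was set against the sort markers and genes known from HSCs. Kit was detected in 143 cells (61.1%, 54.5 to 67.4), Ly6a, which encodes Sca1, in 129 (55.1%, 48.5 to 61.6), and Slamf1, which encodes CD150, in 14 (5.98%, 3.31 to 9.84). Cd48 was detected in 10 cells (4.27%, 2.07 to 7.72). Cd34 RNA was found in 203 cells even though the cells were sorted as negative for the CD34 protein. The HSC identity list, of which all 38 genes were in the table, summed to a median of 140.5 UMIs per cell, and its lowest cell had 8. Genes of mature cells varied. S100a8 and S100a9 of neutrophils were seen in 7 and 5 cells, C1qa of macrophages in 8 and the egg coat gene Zp3 in 16 (6.84%, 3.96 to 10.9). Other members of such lists were more widespread: the chemokine receptor Cxcr2 in 81 cells (34.6%, 28.5 to 41.1), the B cell receptor component Cd79b in 84 (35.9%, 29.7 to 42.4) and Pecam1, also found on HSCs, in 64 (27.4%, 21.7 to 33.5). In 3 cells over 1000 CPM came from genes known from oocytes. UMIs of at least 1 of 4 Y-linked genes were found in 170 cells. The 10 stress response genes summed to a median of 73 UMIs and the 3 mast cell and basophil genes in the table to 38, with a median of 1 such gene detected per cell. Most of these 38 were of Srgn, seen in all 234 cells with a median of 36 UMIs. Cpa3 was seen in 25 cells and Lmo4 in 83. The 7 genes of stroma and endothelium had a median of 1 UMI, and no mitochondrially encoded gene was in the table.

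The myeloid genes Tyrobp, Itgam and S100a6 and the progenitor gene Cd34 were examined first. S100a6, a small calcium-binding protein, was the most widely seen, in 212 cells (90.6%, 86.1 to 94.0), with a median of 7 UMIs and a maximum of 47. Cd34 was detected in 203 cells (86.8%, 81.7 to 90.8), with a median of 4 and a maximum of 33. Tyrobp, the signalling adaptor also called DAP12, was detected in 103 cells (44.0%, 37.6 to 50.6), with a median of 0 and a maximum of 41. Itgam, the integrin subunit CD11b, was detected in 41 cells (17.5%, 12.9 to 23). Of these, 23 cells held 1 Itgam UMI, 14 held 2 to 4, and the other 4 held 6, 8, 10 and 21. S100a6 and Cd34 thus varied in amount within nearly every cell, whereas Tyrobp and Itgam were at 0 in most cells. The Itgam share lay above those of Cd48, C1qa and Zp3 in the same cells and below those of Cxcr2, Cd79b and Pecam1. It was 7.69% with a minimum of 2 UMIs and 27.4% without thinning.

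**Figure D1:**
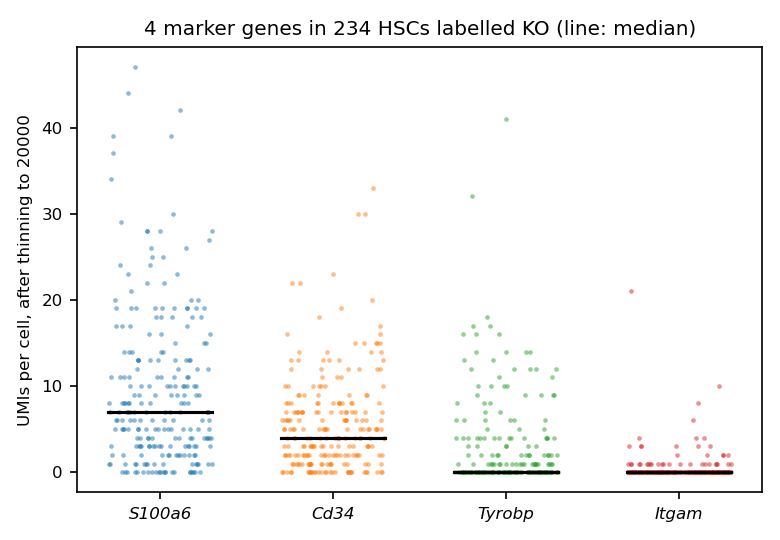
UMIs per cell, after thinning to 20000, of 4 marker genes in the 234 HSCs labelled KO. Each point is a cell, placed at random within its column, and the black line is the median, which was 7 for S100a6, 4 for Cd34 and 0 for Tyrobp and Itgam.

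Itgam and Tyrobp, which both belong to the myeloid surface program, were next set against each other to see whether they marked the same cells. Both were detected in 17 cells (7.26%, 4.29 to 11.4). Tyrobp was detected in 17 of the 41 cells with Itgam (41.5%, 26.3 to 57.9) and in 86 of the 193 cells without it (44.6%, 37.4 to 51.9), shares whose intervals overlap. By Tyrobp level, Itgam was detected in 24 of 131 cells with none (18.32%, 12.11 to 26.02). It was detected in 5 of 59 with 1 to 4 Tyrobp UMIs (8.475%, 2.809 to 18.68). With 5 or more it was detected in 12 of 44 (27.27%, 14.96 to 42.79), and these intervals overlap too. Spearman's rho of the pair over the 234 cells was 0.034. Higher correlations came from other settings, among them 0.064 with Pearson's r, 0.076 with another thinning seed and 0.15 with Pearson residuals. All such correlations describe cells of 1 pool that share libraries, and the many cells at 0 limit what they show for sparse genes. The cell with the most Itgam, 21 UMIs, had none of Tyrobp, 12 of Kit and 133 in the HSC identity list.

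Lineage lists were then summed in these cells. Leaving Itgam and Tyrobp out of the sums, the myeloid surface list had a median of 165 UMIs (quartiles 135 and 176) in the 17 cells with both, 155 in 24 cells with Itgam alone, 150.5 in 86 with Tyrobp alone and 151 (126 and 176.5) in 107 with neither. The granulocyte-macrophage (GM) list, made of granule proteins and transcription factors, had medians of 36, 28.5, 29 and 27 in the same order. HSC identity medians were 126, 169, 136.5 and 143. The quartiles of the 4 sets of cells overlapped in each list. By Itgam level, the myeloid surface list had a median of 177.5 UMIs (167.5 and 213.5) in the 18 cells with 2 or more. It was 151 in the 23 cells with 1 Itgam UMI and 153 (128 and 179) in the 193 with none. Itgam and Tyrobp were kept in these sums, and the quartile ranges of 2 or more and none overlapped. The GM medians did not follow, at 27, 36 and 29 in the same order.

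Partners of the 4 genes were then sought among the 8278 genes whose thinned mean reached 0.2 UMI. Across all 34258503 gene pairs the median rho was 0.0048, with 5th and 95th percentiles of -0.101 and 0.118, and 0.0173% of pairs reached 0.3. Cd34 had 4 partners at 0.3 or above (0.0483% of genes). They were Tmsb10, which binds actin monomers, at 0.367, the cell cycle kinase Cdk6 at 0.317, the protease inhibitor Serpinb1a at 0.314 and Ctla2a, an inhibitor of cysteine proteases, at 0.304. Clnk (0.280), Adgrg3 (0.277), Cd53 (0.272) and Lat2 (0.270) followed, most of them signalling or surface proteins of blood cells. Its lowest values were those of Cavin2 (-0.282), a caveolar protein found in megakaryocytes, and of the ribosomal protein genes Rpl14 (-0.246) and Rpl3 (-0.244). In the authors' normalized values Rpl14 and Rpl3 stood at 0.027 and 0, and in them 13 genes reached 0.3 with Cd34. Over all other settings Tmsb10 ran from 0.269 to 0.447 and Cdk6 from 0.227 to 0.345. Serpinb1a ran from 0.170 to 0.410 and Ctla2a from 0.190 to 0.374, so each fell below 0.3 in some setting.

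Levels of the partners were compared over ranges of Cd34. Tmsb10 had a median of 23 UMIs in the 31 cells without Cd34, 27 in the 87 with 1 to 4 Cd34 UMIs, 32 in the 66 with 5 to 8 and 38 in the 50 with 9 or more. Cdk6 had medians of 1, 1, 2.5 and 6, Serpinb1a of 0, 1, 3 and 3, and Ctla2a of 7, 9, 14 and 19. Cavin2 went the other way, detected in 10 of 31, 18 of 87, 2 of 66 and 3 of 50 cells. Flt3, the receptor that marks the exit towards multipotent progenitors, was seen in 4, 14, 18 and 16 of these cells. Median depth before thinning was 55888, 48452, 51969.5 and 49452 UMIs, so it did not rise with Cd34.

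No gene reached 0.3 with Tyrobp, Itgam or S100a6 (0% of genes for each). The highest for Tyrobp were Tes (0.248), Zfp865 (0.240), Ccnd3 (0.235), Znhit3 (0.232), Tbcel (0.223), Tmsb10 (0.221), Rbm3 (0.214) and Copz1 (0.203), and the lowest Rab2a (-0.230), Grn (-0.216) and Rela (-0.212). For Itgam the highest were Eif2b4 (0.241), Ubox5 (0.236), Arpc3 (0.229), Atp6v1h (0.226), Poldip3 (0.224), Elmod3 (0.223), Kdm4c (0.218) and Pank1 (0.216), with Ganab (-0.210), Mettl9 (-0.196) and Rps14 (-0.196) at the low end. For S100a6 they were Lsp1 (0.252), Caprin1 (0.237), Hnrnpm (0.231), Atp5d (0.229), Eif2a (0.226), Vrk3 (0.211), Erlec1 (0.210) and Washc5 (0.207), with Ddx24 (-0.255), Zfp945 (-0.252) and 2310033P09Rik (-0.212) lowest. These lists hold few genes known from the myeloid lineage, among them Lsp1, an actin-binding protein of leukocytes. The gene at the top changed with the setting: with another thinning seed it was Lat2 for Tyrobp, Gga3 for Itgam and Eif2a for S100a6. No partner of these 3 genes is therefore put forward. Among the markers themselves Cd34 and Tyrobp had a rho of 0.187, and the other 5 pairs lay between -0.033 and 0.034.

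Heterogeneity was measured for every gene by the Fano factor, the variance over the mean, which is 1 when counting error is the sole source of spread. At equal depth it was at least 2 for 8218 of the 8278 genes (99.3%), with a median of 4.71, so a threshold of 2 did not single genes out. UMIs came in clumps: the 4799 genes with a mean below 1 were seen in a median of 16.7% of cells, with a median of 2.82 UMIs in the cells that had them. A Fano factor of at least 10 was reached by 287 genes (3.47%). After thinning, the highest values among genes with under 25% of their UMIs in a single cell were those of the ribosomal RNA precursor Rn45s (152), the nuclear RNA Malat1 (84.4), Akap5 (65.3), Casc4 (44.0), Capn15 (43.1) and Mfsd11 (41.0). Fos (40.5), Ifitm3 (40.4), Hmgb2 (39.5), Rpl17 (35.0), Gmeb1 (31.1), Dennd5b (30.7), Mrpl41 (30.2), Hist1h2ae (30.1) and Atg2b (28.9) completed the 15. Rn45s ranged from 6 to 1016 UMIs per cell around a median of 265.5. Several of these genes were near 0 in most cells and very high in a few: Akap5 had a median of 2 and a maximum of 180, and Capn15 was seen in 42 cells with up to 104 UMIs.

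By list, a Fano factor of at least 10 was found for 9 of 23 tested G2M phase genes, 6 of 20 immediate early genes, 5 of 34 interferon response genes and 5 of 31 ribosomal protein genes, beside 3.47% of all genes. It was found for 2 of 37 HSC identity genes (Ifitm1 at 26.4 and Ly6a at 10.8), and for 1 each of 27 S phase (Lig1, 16.3), 12 GM (Nkg7, 13.5), 27 myeloid surface (Tyrobp, 10.1), 20 megakaryocyte (Pf4, 20.0) and 15 lymphoid genes (Ltb, 15.5). At a given relative spread the Fano factor rises with the mean, so abundant genes are favoured. By summed UMIs before thinning, the most abundant members were Ifitm1, Txnip and Meis1 for HSC identity, Spi1, Prtn3 and Lyz2 for GM, Coro1a, Arhgdib and Laptm5 for myeloid surface, Pf4, Fyb and Nfe2 for megakaryocyte, Mef2c, Ltb and Cd27 for lymphoid and Car2, Urod and Blvrb for erythroid genes.

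Genes that moved together fell into few sets. Linking genes with a rho of at least 0.4 gave 1137 pairs and 11 sets, and 1092 of the pairs (96.0%) lay in 1 set of 144 genes. It held 45 of the 50 tested members of the S phase and G2M phase lists and is called the cell cycle set here. The other sets of more than 2 genes were 14 genes, 13 of them ribosomal protein genes with the elongation factor Eef1a1, a further 6 ribosomal protein genes, and 4 genes of antigen presentation by MHC class II (Cd74, H2-Aa, H2-Ab1 and H2-Eb1). The 7 pairs included Fos with Junb and Lyz1 with Lyz2. Lyz1 and Lyz2 are near-identical copies, and reads of 1 could have been counted for the other. The same holds for ribosomal protein genes, which have many processed copies in the genome.

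**Figure D2:**
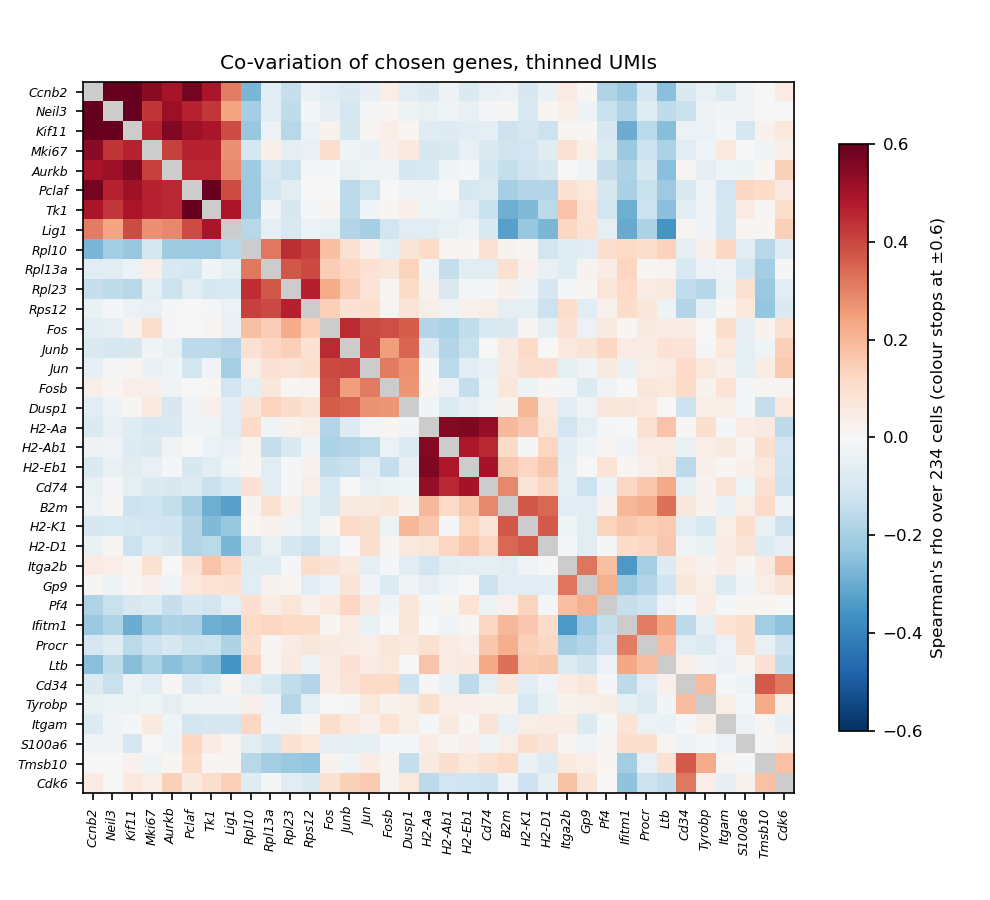
Spearman's rho of 36 genes over 234 cells, chosen after their values were seen; both axes list the genes and colour runs from -0.6 to 0.6. Blocks stand for cell cycle, ribosomal protein, immediate early and MHC class II and class I genes, and the rows of Tyrobp, Itgam and S100a6 are pale throughout.

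Among genes with a Fano factor of at least 2, the cell cycle set held the 10 closest pairs. They were Ccnb2 with Neil3 (0.778), Kif11 with Neil3 (0.697), Ccnb2 with Kif11 (0.669), Knl1 (0.664) and Ska1 (0.651), Aurkb with Pbk (0.650), Ska1 with Spc25 (0.650), Cdca3 (0.645) and Knl1 (0.630), and Pclaf with Tk1 (0.641). Ccnb2 is a mitotic cyclin, Kif11 the motor that separates spindle poles, Knl1, Ska1 and Spc25 are kinetochore proteins and Aurkb is a mitotic kinase, while Pclaf and Tk1 act in DNA synthesis. These genes were rare: Ccnb2 was seen in 24 cells, Neil3 in 19, Kif11 in 23 and Ska1 in 16. Tk1 had 151 partners at 0.3 or above, the most of any gene, followed by Gmnn (145), Cenpm (130) and Cenph (127). Mki67, the proliferation marker Ki67, was seen in 50 cells and had 63 partners (0.761% of genes), led by Pbk (0.553) and Ccnb2 (0.543). Pbk was detected in 23 of the 50 cells with Mki67 and in 9 of the 184 without it. The highest-spread G2M genes were Hmgb2, Ube2c and Top2a. Of the Ube2c UMIs before thinning 44.4% lay in 1 cell.

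Promoters of 4 genes from the closest pairs, chosen after values were seen, are shown because a motif was more frequent in the set than in all promoters. The 150 bases before the RefSeq start of each gene are given 5′ to 3′ on the gene's strand in build GRCm38.p6, whereas the authors aligned to mm9. Capitals mark CCAAT or its reverse complement ATTGG, the binding letters of the factor NF-Y.
Ccnb2 (chr9:70421555-70421704, - strand): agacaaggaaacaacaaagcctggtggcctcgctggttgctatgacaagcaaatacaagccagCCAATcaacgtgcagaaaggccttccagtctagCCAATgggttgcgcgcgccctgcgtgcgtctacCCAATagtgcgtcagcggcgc
Kif11 (chr19:37376232-37376381, + strand): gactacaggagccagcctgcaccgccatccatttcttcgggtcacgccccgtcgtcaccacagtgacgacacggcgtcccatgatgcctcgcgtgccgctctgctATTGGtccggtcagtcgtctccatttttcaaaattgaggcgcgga
Spc25 (chr2:69206214-69206363, - strand): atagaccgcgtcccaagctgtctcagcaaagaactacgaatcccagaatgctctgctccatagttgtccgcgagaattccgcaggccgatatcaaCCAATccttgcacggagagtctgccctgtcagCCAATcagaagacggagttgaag
Neil3 (chr8:53639066-53639215, - strand): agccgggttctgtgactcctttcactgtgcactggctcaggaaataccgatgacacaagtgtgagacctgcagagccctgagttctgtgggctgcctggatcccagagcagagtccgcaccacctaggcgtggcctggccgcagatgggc
Ccnb2 held 3 matches, Spc25 had 2, Kif11 had 1 and Neil3 none. Of the 144 genes, 118 had an entry among the promoters, and 73 of their 133 promoters (54.9%) held the motif, beside 24.5% of all 32851 promoters over the same length. TTTGAA or its complement TTCAAA, known as the CHR element of mitotic genes, was found in 19.5% and 9.07%, respectively. A match describes the letters and does not show a bound site.

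Cells were next ordered by the summed UMIs of the S phase list (28 genes) and the G2M phase list (30 genes). The S phase sum had a median of 26 and a maximum of 256, and the G2M sum a median of 12 and a maximum of 494. Their rho was 0.442. In 63 cells (26.9%, 21.4 to 33.1) the S phase sum reached 60 or the G2M sum 40, limits set after the data were seen. Of these, 30 passed the S phase limit alone, 9 the G2M limit alone and 24 both. This is a range and not a cell type, and 24 cells lay within 25% of a limit. These 63 cells had a median depth of 65301 UMIs before thinning, and the other 171 had 48515.

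HSC identity genes were lower in the cells with high cycle sums. The list summed to a median of 100 UMIs (quartiles 80.5 and 130.5) in the 63 cells and 151 (125 and 179) in the other 171. Ifitm1, an interferon-induced membrane protein known from HSCs, had medians of 24 and 41, Ltb, a lymphotoxin subunit, 1 and 7, the thioredoxin-binding protein Txnip 8 and 16, Meis1 5 and 7, and Ccnd2 20 and 28. Cdk6 went the other way, at 5 and 2. Cd34 (5 and 4), S100a6 (8 and 7), Tyrobp (0 and 0) and Itgam (0 and 0) differed little. The myeloid surface list had medians of 136 and 159, the lymphoid list 42 and 49, the GM list 25 and 30, the erythroid list 27 and 24, and the quartile ranges overlapped for these lists as for HSC identity. Stress response genes were at 87 and 68 and the ribosomal proteins at 1669 and 1886. Over all cells the rho of HSC identity with the S phase list was -0.421 and with the G2M list -0.326. Each thinned cell holds the same total, so a larger share for 1 group of genes leaves a smaller one for the rest. In the authors' normalized values these correlations were 0.163 and 0.197.

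**Figure D3:**
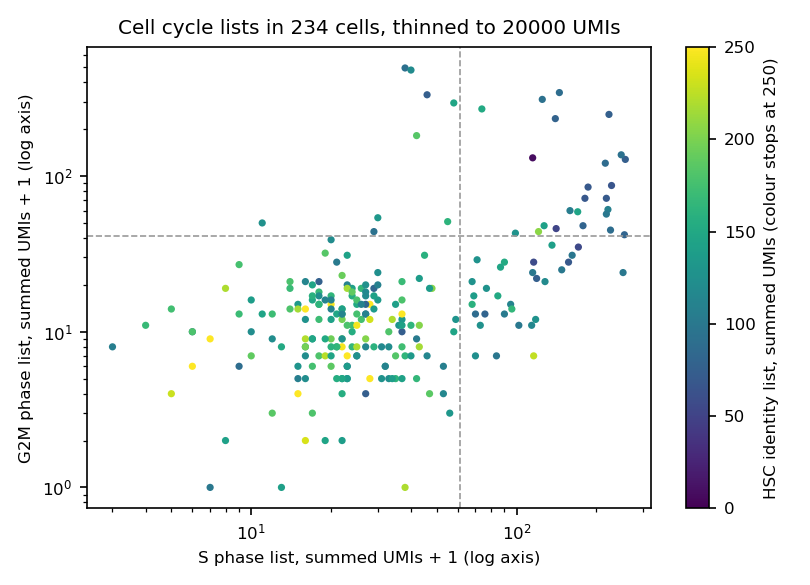
Summed UMIs of the S phase list (horizontal) and the G2M phase list (vertical) in 234 cells, each plus 1 on log axes, with colour for the HSC identity list. Dashed lines mark the limits of 60 and 40 UMIs; the 171 cells at lower left had a median HSC identity sum of 151 and the other 63 one of 100.

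The first principal component of log2(thinned UMIs + 1) held 1.94% of the variance and followed the same axis. Lig1, Hmgb2, Pcna, Tk1, Tuba1b and Top2a, all of DNA replication or mitosis, had the largest positive weights, and Ltb, Ifitm1, Gstm1, Txnip, Procr and Shisa5 the largest negative ones. Its rho with the summed cycle lists was 0.691, with HSC identity -0.594, with the number of genes detected 0.616 and with depth 0.180. The second component held 0.951%, with Fos, Rn45s, Jun, Rps12, Aprt and Prrc2c against H2-Ab1, Eif6, Drg1, Uqcrq, Ndufa12 and Sec62. Its rho was 0.615 with the number of genes detected, 0.540 with Rn45s, -0.267 with depth and -0.204 with the column number. Among genes with a Fano factor of at least 2, some of the 10 lowest single pairs held a member of a cycle list. These were B2m with Mcm2 (-0.378), Aldoa with Ccnb2 (-0.370) and Lig1 with Ltb (-0.352). Anp32b with B2m (-0.399), Malat1 with Rpl8 (-0.388) and Ftl1 with Ppia (-0.383) were also among the 10 lowest. So were Ltb with Ptma (-0.365), Malat1 with Srsf3 (-0.356) and Jarid2 with Josd2 (-0.352).

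Immediate early genes, which are transcribed within minutes of a stimulus, formed a second group. Of 190 pairs among 20 tested members 13 reached 0.3 (6.84%), against 0.0173% of all pairs. Fos had 8 partners (0.0967% of genes): Junb (0.448), Jun (0.397), Fosb (0.389), Dusp1 (0.364), Ppp1r15a (0.354), Nr4a1 (0.337), Egr1 (0.328) and Rgs2 (0.318). All are early response genes, whether transcription factors, the phosphatase Dusp1, the eIF2 phosphatase subunit Ppp1r15a or the G protein regulator Rgs2. Fos was at 0 in 119 cells, at 1 to 9 UMIs in 76 and at 10 or more in 39. In that order, Junb had medians of 0, 1 and 9, Jun of 1, 4 and 18, and Dusp1 of 0, 0 and 7, and Fosb was seen in 3, 3 and 16 cells. Median depth fell over the same cells, from 60227 to 46937.5 and 37271 UMIs before thinning, and the part of depth in this was not tested. With the cells in order of column number and cut into 4 blocks of 58 or 59, the list had medians of 27, 58.5, 40.5 and 33 UMIs. Whether column numbers follow libraries is not given in the sources used here. Cells with 10 or more Fos UMIs were bunched in column order. Of the 39, 17 lay among 23 successive cells, the stretch of that length with the most such cells. The median depth of these 23 cells was 36241 UMIs before thinning, against 50967 in the other 211. The immediate early list had a median of 120 UMIs in the 23 cells and 33 in the others. This gap follows in part from how the 23 cells were chosen, since Fos is a member of the list. Fos and Junb had a rho of 0.382 without these 23 cells and 0.377 with ranks centred within 12 successive blocks of 19 or 20 cells, and Fos and Jun had 0.307 and 0.349. With the same centring the value of H2-Aa with H2-Ab1 was 0.552, of Cd34 with Tmsb10 0.385, of Itga2b with Gp9 0.311 and of Itgam with Tyrobp 0.061. Block 8 of the 12, which lies outside the 23 cells, held 8 cells with 10 or more Fos UMIs among its 19. Its immediate early median was 77 UMIs and its median depth 37141, and it stayed in the values without the 23 cells. The part of the column order in the Fos values was not tested further.

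The 150 bases before the start of 3 of these genes are shown since they share a short motif, with TGACG or its complement CGTCA, the core of the cyclic AMP response element, in capitals.
Fos (chr12:85473740-85473889, + strand): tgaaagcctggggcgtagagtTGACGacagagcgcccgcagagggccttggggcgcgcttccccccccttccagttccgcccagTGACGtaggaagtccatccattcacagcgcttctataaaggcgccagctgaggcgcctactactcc
Junb (chr8:84978749-84978898, - strand): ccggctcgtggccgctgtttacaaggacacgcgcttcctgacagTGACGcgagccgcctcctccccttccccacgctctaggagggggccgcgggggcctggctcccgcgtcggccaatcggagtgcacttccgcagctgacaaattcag
Fosb (chr7:19310046-19310195, - strand): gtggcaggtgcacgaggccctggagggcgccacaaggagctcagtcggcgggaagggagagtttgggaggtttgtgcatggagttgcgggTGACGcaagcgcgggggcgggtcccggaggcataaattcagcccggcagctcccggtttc
Fos held 2 matches, and Junb and Fosb 1 each. Over the immediate early list 7 of 20 promoters (35.0%) held one, beside 13.3% of all promoters. It was found in 8 of 17 promoters of the ribosomal protein sets (47.1%) and 35 of 133 of the cell cycle set (26.3%) as well.

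The MHC class II genes formed the tightest set outside the cell cycle. H2-Aa and H2-Ab1 encode the chains of the I-A molecule, H2-Eb1 the beta chain of I-E, and Cd74 the invariant chain that escorts them. Their 6 pairs had a rho between 0.453 (H2-Ab1 with Cd74) and 0.560 (H2-Aa with H2-Eb1). H2-Ab1 was detected in 164 cells (70.1%, 63.8 to 75.9), H2-Aa in 140 (59.8%, 53.2 to 66.2), H2-Eb1 and Cd74 in 119 each (50.9%, 44.3 to 57.4). All 4 were detected in 66 cells (28.2%, 22.5 to 34.4), with a median summed level of 37.5 UMIs and a maximum of 157, and none in 26 cells (11.1%, 7.39 to 15.9). The sum thus ran from 0 to 157 around a median of 8. Median depth before thinning was 46999.5 in the cells with all 4 and 59510.5 in those with none. The MHC class II sum had a rho of -0.0860 with the B cell gene Cd79b, 0.202 with the lymphoid list, 0.257 with the interferon list and 0.0230 with HSC identity. In the 171 cells under both limits H2-Aa had a rho of 0.556 with H2-Eb1, 0.574 with H2-Ab1 and 0.541 with Cd74. MHC class I genes B2m, H2-K1 and H2-D1 had pairwise values of 0.343 to 0.373. H2-K1 and H2-D1 are similar in sequence, and reads could have been split between them.

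The promoters of H2-Aa and H2-Eb1 are shown with CCAAT or ATTGG in capitals, since the Y box of MHC class II promoters holds these letters.
H2-Aa (chr17:34287824-34287973, - strand): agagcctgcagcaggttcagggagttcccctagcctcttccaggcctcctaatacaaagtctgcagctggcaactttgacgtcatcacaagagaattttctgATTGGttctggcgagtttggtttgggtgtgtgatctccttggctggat
H2-Eb1 (chr17:34305717-34305866, + strand): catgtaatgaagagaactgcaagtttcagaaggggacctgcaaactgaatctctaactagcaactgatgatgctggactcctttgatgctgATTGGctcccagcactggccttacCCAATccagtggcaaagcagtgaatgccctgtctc
The match began 48 bases before the start in H2-Aa, and 59 and 35 bases before it in H2-Eb1.

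**Figure D4:**
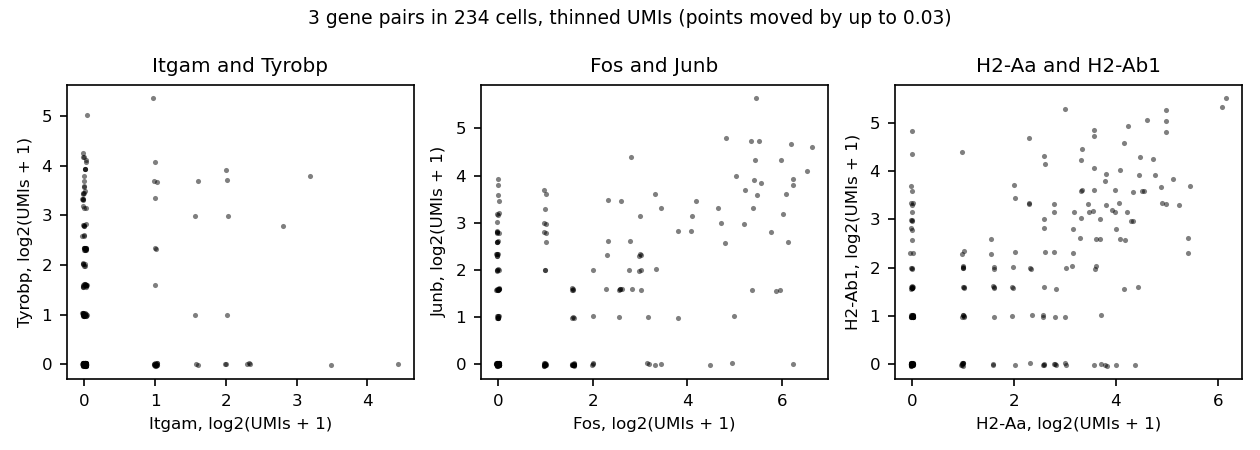
Thinned UMIs of 3 gene pairs in 234 cells on the log2(UMIs + 1) scale; each point is a cell, moved by up to 0.03 for visibility. Itgam and Tyrobp (rho 0.034) lie mostly along the axes, whereas Fos and Junb (0.448) and H2-Aa and H2-Ab1 (0.553) rise together.

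Megakaryocyte genes were examined next, with pairs chosen after their values were seen. Itga2b, the CD41 integrin chain, was seen in 167 cells (71.4%, 65.1 to 77.1), Pf4, a platelet chemokine, in 194 (82.9%) and the platelet glycoprotein Gp9 in 133 (56.8%, 50.2 to 63.3). Itga2b had 2 partners at 0.3 (0.0242% of genes), Gp9 (0.321) and the actin-severing protein Gsn (0.303). The value for Gsn was 0.226 with another thinning seed and 0.101 with Pearson residuals, whereas that for Gp9 was 0.285 and 0.355. Gp9 was detected in 108 of the 167 cells with Itga2b (64.7%, 56.9 to 71.9) and in 25 of the 67 without it (37.3%, 25.8 to 50). Pf4 had a rho of 0.215 with Gp9, 0.215 with Gp5, 0.210 with Ppbp and 0.181 with Itga2b. Itga2b had its lowest value with Ifitm1 (-0.343). Ifitm1 had medians of 47, 39 and 23 UMIs in the 67 cells without Itga2b, the 101 with 1 to 4 UMIs and the 66 with 5 or more, and Pf4 had 3, 6 and 8. Procr, the HSC surface receptor EPCR, was seen in 43, 61 and 25 of these cells. Ifitm1 in turn went with Ifitm3 (0.317) and Procr (0.307). The value for Itga2b and Ifitm1 was -0.332 among the 171 cells under both cycle limits and -0.255 in the authors' normalized values.

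The other lineage lists showed little internal co-variation. The median rho among members was 0.0188 for 12 GM genes, 0.0180 for 27 myeloid surface genes, 0.0370 for 20 megakaryocyte genes, 0.00442 for 15 lymphoid genes, 0.117 for 3 mast cell and basophil genes, -0.00265 for 8 erythroid genes and 0.0172 for 37 HSC identity genes, beside 0.0048 for all pairs. It was 0.334 for the S phase list and 0.329 for the G2M list, where 62.4% and 64.0% of pairs reached 0.3. In the GM list the sole pair at 0.3 was Lyz1 with Lyz2, at 0.509. Prtn3, a granule protease, had a rho of -0.118 with Plac8 and -0.0940 with Nkg7, and the latter was -0.0220 with another thinning seed. Prtn3 was detected in 59 of 103 cells with Tyrobp (57.3%, 47.2 to 67.0) and in 97 of 131 without it (74.0%, 65.7 to 81.3). Other GM genes went the other way: Plac8 (64.1% with Tyrobp and 51.9% without), Spi1 (78.6% and 70.2%) and Nkg7 (49.5% and 43.5%). The intervals overlapped for all of these genes, Prtn3 included.

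Members of several lineage lists were detected in nearly every cell. At least 3 members each of the GM, myeloid surface, megakaryocyte and lymphoid lists were detected in 227 of 234 cells (97.0%, 93.9 to 98.8), and at least 3 erythroid genes in 121. The table held 15 of 26 GM, 27 of 34 myeloid surface, 26 of 29 megakaryocyte, 19 of 33 lymphoid and 12 of 26 erythroid genes. Members absent from it could not be counted. Some members were widespread alone, such as Lyz2 (88.5% of cells), Fyb (93.2%) and Mef2c (90.2%). Over all genes, a thinned cell held UMIs of a median of 2909 of the 10720 genes in the table. Other gene sets of like size were not compared, so the 227 cells do not set lineage genes apart from other genes. Median sums were 154.5 UMIs for myeloid surface, 51 for megakaryocyte, 48 for lymphoid, 29 for GM and 25 for erythroid genes, of which Car2, present in all cells, gave a median of 20. Several members are active across blood cells (Coro1a, Arhgdib, Laptm5), so these sums do not by themselves mark a lineage. Between the lists of these 5 lineages, all 10 correlations lay between 0.006 and 0.152, and none was negative. Of all 45 list pairs, 10 reached 0.2 in size, 4 positive and 6 negative. Besides the 3 given above, HSC identity went with the lymphoid (0.262), immediate early (0.254) and interferon (0.245) lists. The most abundant members of the HSC identity and interferon lists were Ifitm1 and Ifitm3, which had a rho of 0.317. Over the other settings the value of these lists ran from 0.081 to 0.372. The S phase list was negative with the lymphoid (-0.247), myeloid surface (-0.224) and immediate early (-0.219) lists, as was the G2M list with the megakaryocyte list (-0.222). In the 171 cells under both cycle limits 1 of the 45 pairs reached 0.2 in size. It was megakaryocyte with interferon response (-0.229), which is not among the 10.

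**Figure D5:**
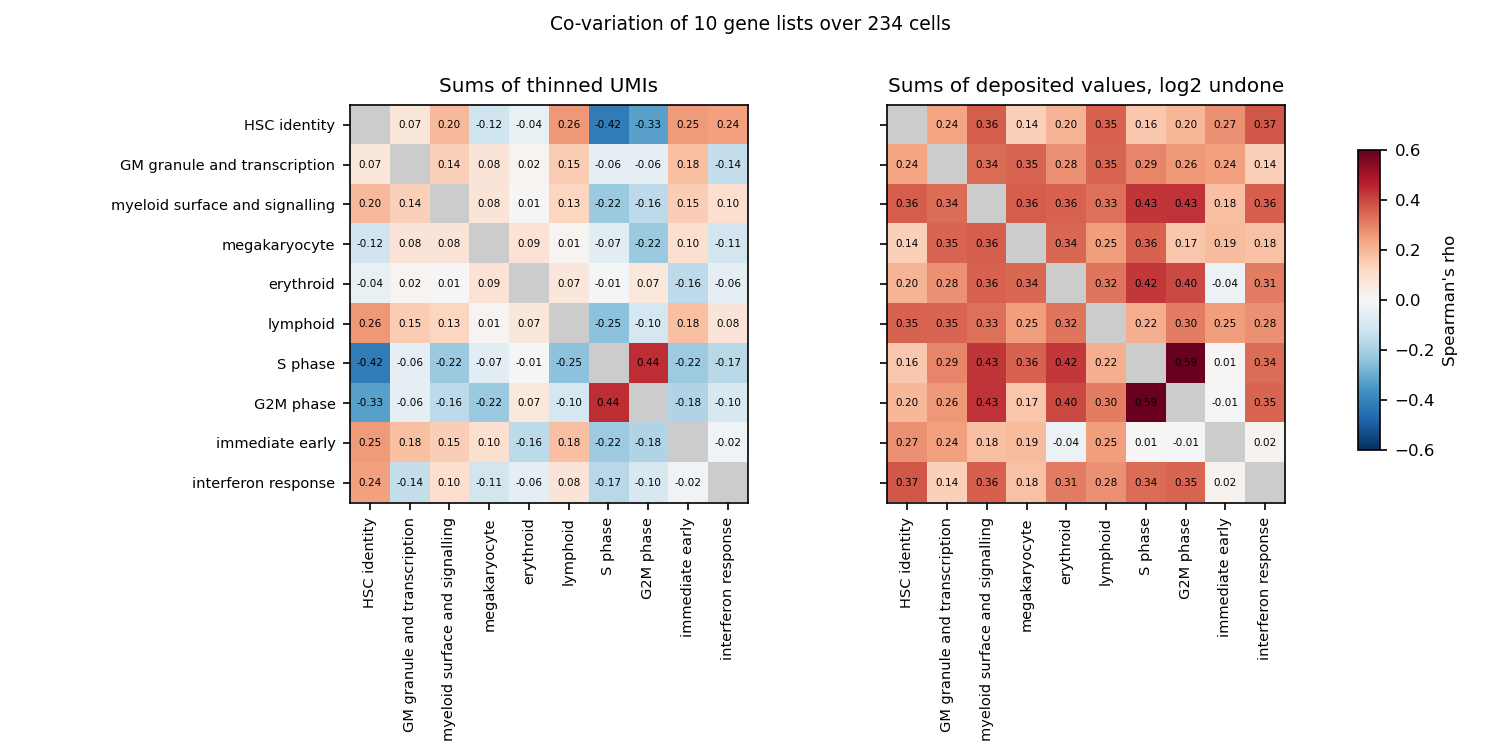
Spearman's rho between the summed levels of 10 gene lists over 234 cells, from thinned UMIs (left) and from the deposited values with the log2 undone (right), with each value printed. Negative values with the cycle lists at left (HSC identity with S phase -0.421) are positive at right (0.163), where 33 of 45 pairs reached 0.2.

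The sign of these list correlations changed with the scaling. With the deposited normalized values in place of thinned UMIs, 43 of the 45 pairs were positive and 33 reached 0.2. The normalized totals of the 234 cells were not equal: they ran from 31092 to 185734, a 5.97-fold range, and every list rose with this total, with a rho of 0.147 (immediate early) to 0.698 (S phase).

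A few cells stood apart. One held 955 of the 989 Car1 UMIs of the pool before thinning, while the next cell held 10. Car1, carbonic anhydrase 1, is an erythroid enzyme. After thinning this cell had 298 UMIs in the erythroid list, against 91 in the next highest, with 165 of Car1, 84 of Car2, 22 of Blvrb and 9 of the erythroid factor Klf1. It had the lowest sums of all cells for HSC identity (8, the next lowest 51), myeloid surface (18, next 74) and lymphoid genes (4, next 17), no Cd34, Kit or Tyrobp, and 114 and 130 UMIs in the S phase and G2M lists. The metallothioneins Mt1 and Mt2 had 29 UMIs each in it. Another cell had 805 UMIs in the interferon response list, against 433 in the next highest and a median of 109.5. It held 425 UMIs of Ifitm3, 56 of Igtp, 27 of Ifi47 and 19 of Irf7. Its HSC identity list summed to 271, more than in 228 of the 234 cells. Of these 271 UMIs, 138 were of the interferon-induced Ifitm1, while Kit and Ly6a had none. Without the Car1 cell and the 3 cells with oocyte transcripts, the marker shares were 87.0% for Cd34, 44.3% for Tyrobp, 16.5% for Itgam and 90.9% for S100a6, and 10 of 45 list pairs again reached 0.2. Before thinning, 49 genes with at least 500 UMIs had over 25% of them in 1 cell, led by Car1 (96.6%), Ube2c (44.4%), Clec4e (43.3%), Ing2 (39.9%) and Myef2 (37.6%).

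Along the column numbers, the share of cells with Itgam was 10.2%, 10.3%, 25.9% and 23.7% in the 4 successive blocks, and that with Tyrobp was 55.9%, 41.4%, 39.7% and 39.0%. Cd34 (82.8% to 89.8%), S100a6 (86.2% to 96.6%) and the share of cells over a cycle limit (25.4% to 28.8%) were flatter. Median depth was 48010 to 52769 UMIs. What the column order stands for is not known, and its part in the Itgam and Tyrobp shares was not tested.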

How the data were processed

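Single-cell RNA sequencing of sorted HSCs was analysed from the deposited table. The authors split reads by cell barcode, aligned them to the mm9 mouse transcriptome, removed UMI duplicates, dropped cells with under 30% mapping, 2000 genes or 20000 transcripts and genes averaging 0.2 counts or less, then normalized them; which aligner and which normalization are not given in the sources used here. The deposited values are log2 of the normalized count plus 1. No column was left unassigned.

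Once the log2 was undone, each cell's values were integer multiples of its lowest nonzero one, so UMI counts were recovered by division and rounding; with a tolerance of 0.01, 100% were whole. The planned design assumed counts per library; columns name the genotype alone, so its fallback of 1 pool without tests was used. Cells under 2000 genes or 20000 UMIs in the table (48 of 282) were left out; 47 had too few UMIs and 2 too few genes. The genes that the authors removed are missing from these sums. Cells were thinned without replacement to 20000 UMIs (numpy 2.4.6), and genes with a mean of at least 0.2 entered the correlations (scipy 1.17.1, Spearman's rho). Cells were neither clustered nor given types, and doublets were not searched for because cells had been hand-picked. Shares have Clopper-Pearson and sums Poisson intervals of 95%, which cover counting error only. The code was tested on simulated data.

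Genes named are Med23, the 4 markers with their 8 highest and 3 lowest partners, the 15 highest Fano factors (under 25% of UMIs in 1 cell), the 10 closest pairs, the 3 most abundant and 3 most variable members of each list, the 6 largest weights on each side of 2 principal components, and genes with over 25% of at least 500 UMIs in 1 cell; examples stand for the last 3 of these. Itga2b, Fos, H2-Aa, Mki67, Ifitm1, their partners, all levels by range of another gene, the cycle limits and the promoters were chosen after values were seen. The members and lists were chosen with earlier results of these data known. Promoter sequences come from RefSeq, GRCm38.p6. H2-Ab1 has no entry among them. Of the 10 lowest gene pairs, 1 is not reported here.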

Additional observations from a re-analysis of the deposited data

How the results depend on the processing

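No paired analysis was possible because cells are not assigned to numbered libraries and nothing was tested. Leaving out each library and the replicate block were not run on that account. Leaving out the Car1 cell with the oocyte cells, the cells under both cycle limits, a Fano factor of 10, the 12 blocks of columns and leaving out 23 successive cells were chosen after seeing the data. With another thinning seed, every cell that reached 20000 UMIs or a minimum of 3000 genes and 30000 UMIs, the marker shares stayed within the intervals given. Thinning to 10000 UMIs gave 78.2% for Cd34, 36.3% for Tyrobp and 85.9% for S100a6. No thinning gave 92.7% for Cd34, 56.4% for Tyrobp, 27.4% for Itgam, 97.4% for S100a6 and 16.2% for Itgam with Tyrobp. A minimum of 2 UMIs gave 76.9%, 33.8%, 7.69%, 83.8% and 2.99% in the same order. These follow from the depth and the stricter count by construction. Genes with a Fano factor of at least 2 numbered 3471 with a mean of at least 1 UMI, since fewer genes were tested, and 287 reached 10. Cd34 had 13 partners in the authors' normalized values and 0 at 10000 UMIs. Tyrobp had 1 in the cells under both cycle limits. Itgam had 6 with Pearson residuals and 1 each with Pearson's r, the authors' values, the stricter minimum, 30000 UMIs, another seed and the cells under both limits. S100a6 had 14 in the authors' values and 2 with the stricter minimum. The cause was not tested. List pairs at 0.2 numbered 33 in the authors' values and 1 in the cells under both cycle limits. The sign changes that follow are those of list pairs that reached 0.2 in size with thinned UMIs. In the authors' values 6 list pairs changed sign: HSC identity with S phase (0.163) and G2M (0.197), S phase with myeloid surface (0.427), lymphoid (0.218) and immediate early (0.005), and megakaryocyte with G2M (0.166). By the number of members detected, HSC identity with G2M (0.057), myeloid surface (0.077), lymphoid (0.029) and immediate early (0.026) with S phase, and megakaryocyte with G2M (0.046) did too, and S phase with immediate early was 0.054 in the cells under both limits. There 7 cell cycle pairs lost their sign: Mki67 with Knl1 (-0.043), Ccnb2 with Kif11 (-0.023), Knl1 (-0.015) and Ska1 (-0.01), Aurkb with Pbk (-0.038), and Ska1 with Cdca3 (-0.013) and Knl1 (-0.008). That setting removes the cells that hold these genes.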
